A study of Mus musculus with 5 samples.

Results

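The 10 genes described here carry out MHC class I presentation, and they were taken by symbol from the 78334 genes listed in each of 5 libraries of mouse dentate gyrus RNA. They are the class I heavy chains H2-D1, H2-K1 and H2-T23, the light chain B2m, the peptide transporter subunits Tap1 and Tap2, the loading factor Tapbp, the inducible proteasome subunits Psmb8 and Psmb9, and the transactivator Nlrc5. Each group of the study was 1 droplet library, made with 3′ kits that count RNA molecules by unique molecular identifiers (UMIs). In the first part, wild-type mice gave dissociated cells 14 days after CFC training (CFC-14d) or 14 days after foot shocks given at random (Random-14d). CFC is taken here as contextual fear conditioning, since the labels do not spell it out. In the second part, nuclei were isolated from frozen tissue. Their donors were untreated wild types (WT-naive), wild types trained 14 days earlier (WT-CFC) and mice labelled as knockouts that had the same training and delay (KO-CFC). Each group held 10 mice. How they were combined into 1 library, and their strain, sex and age, are not given in the sources used here. With 1 library a group no test between groups was possible, and every interval below is a 95% interval that covers counting error only.

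Class I molecules display peptides from inside the cell to CD8 T cells and to receptors of NK cells. Proteasomes cut proteins into peptides, the Tap1 and Tap2 transporter carries them into the endoplasmic reticulum, and Tapbp (tapasin) holds the transporter to empty heavy chains until a peptide fits. A heavy chain reaches the cell surface in complex with B2m. Interferons raise most of these genes through Irf1 and Nlrc5, among other factors, and replace subunits of the constitutive proteasome by Psmb8, Psmb9 and Psmb10. In the healthy brain endothelium and microglia are known to carry class I, while neurons hold little.

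The promoters of the heavy chains and of B2m are shown because these genes varied together across cell classes and libraries in what follows. The sequences are the 250 bases before the start in the RefSeq promoter table of build GRCm38.p6, which held 8 of the 10 genes, and the coordinates are of that build and not of the build used for the counts, GRCm39. Capitals mark matches on either strand to the letters GAANNGAAA or GAAANNGAAA, which are forms of the interferon-stimulated response element, and to GGGNNTTCC or GGGNNTTTCC, which are forms of the NF-kB site. For H2-K1 the table lists 2 starts, of which the first was used.
H2-D1, chr17:35262844-35263093, plus strand: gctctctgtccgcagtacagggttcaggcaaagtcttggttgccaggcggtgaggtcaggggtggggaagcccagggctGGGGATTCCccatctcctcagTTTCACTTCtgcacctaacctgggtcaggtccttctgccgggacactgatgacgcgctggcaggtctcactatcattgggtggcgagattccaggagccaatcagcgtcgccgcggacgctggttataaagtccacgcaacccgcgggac
H2-K1, chr17:34000348-34000597, minus strand: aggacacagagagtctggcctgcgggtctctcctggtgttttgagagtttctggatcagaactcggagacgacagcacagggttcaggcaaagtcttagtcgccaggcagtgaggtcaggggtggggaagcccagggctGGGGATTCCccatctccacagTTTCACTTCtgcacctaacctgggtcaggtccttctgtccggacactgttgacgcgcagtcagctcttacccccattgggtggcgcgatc
B2m, chr2:122147437-122147686, plus strand: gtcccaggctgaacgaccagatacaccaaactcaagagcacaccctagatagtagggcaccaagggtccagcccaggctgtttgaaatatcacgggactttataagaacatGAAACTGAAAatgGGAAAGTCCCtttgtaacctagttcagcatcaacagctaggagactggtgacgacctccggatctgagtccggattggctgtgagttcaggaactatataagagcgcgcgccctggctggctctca
H2-T23, chr17:36032702-36032951, minus strand: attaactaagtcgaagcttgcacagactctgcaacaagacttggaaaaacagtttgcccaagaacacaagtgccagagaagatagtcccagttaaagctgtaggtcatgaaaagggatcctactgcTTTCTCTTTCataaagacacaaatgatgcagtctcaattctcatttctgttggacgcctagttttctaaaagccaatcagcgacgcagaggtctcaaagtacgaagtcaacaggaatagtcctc
The letters GAANNGAAA stood 150 bases before the start of H2-D1 and 90 before that of H2-K1, in windows of 300 bases that reach 50 past the start, and in 7.56% of 27025 promoters. The longer GAAANNGAAA stood at 139 bases in B2m and at 124 in H2-T23, and in 3.49% of all promoters. An NF-kB form stood in H2-D1, H2-K1 and B2m, against 6.88% of promoters. The letters TGACG of a cyclic AMP response element was found in 5 of the 8 windows and CCAAT in 7 of them, against 21.02% and 37.9% of promoters. Psmb8 held the letters TTCNNNGAA of a gamma-activated site, found in 8.47% of promoters. Tap1 and Psmb9 lie head to head, and their windows share 275 of 300 bases. Their TGACG and CCAAT matches are the same sites read from both sides, so each was counted for both genes. A match of letters is a description of the window and not a binding site.

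The libraries held 126937815 UMIs for CFC-14d, 122920565 for Random-14d, 64716053 for WT-naive, 68519389 for WT-CFC and 38045642 for KO-CFC, and from 7716 to 28579 barcodes were kept in each. CFC-14d and Random-14d had 282 barcode sequences in common, and the pairs of nuclei libraries had 25 to 32. Granule neuron and mossy cell classes among the nuclei matched the tissue label, while no cluster of dissociated cells was granule-neuron-like. The CA3 or CA2 class, named for other fields of the hippocampus, did not bear the label out. It outnumbered granule neurons among wild-type nuclei, by 2668 barcodes to 1149 for WT-naive and 2008 to 1358 for WT-CFC. The library labelled KO-CFC went the other way, with 1244 to 1558. Clusters of this class were named on only 3 or 4 of 8 markers. Choroid plexus epithelium made up 18.0% of kept barcodes in CFC-14d and 17.8% in Random-14d. The library labelled KO-CFC stands apart. Csf2rb2, a receptor subunit for interleukin-3 in mice, was still present at 9.67 UMIs in every 1000000 (CPM), against 17.6 in WT-CFC and 14.4 in WT-naive. The title names a Csf2rb2 knockout and the genotype tag Csf2rb3, and a 3′ tag may lie outside the deleted part, so this checks nothing. Igkc, an antibody light chain, was at 460 CPM in the library labelled KO-CFC, at 0.0146 in WT-CFC and at 0 in WT-naive. The X-linked Xist was at 641 CPM there and at 2.94 or less in the other nuclei libraries, and the Y-linked Ddx3y was at 6.39 CPM there, 32.0 in WT-CFC and 28.3 in WT-naive. The sex of the mice and the label of this library therefore cannot be told apart.

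H2-D1 RNA among dissociated cells was highest in monocyte-, T or NK-, dendritic- and B cell-like classes, lower in endothelial cells, lower still in microglia and lowest in choroid plexus epithelium. H2-D1, a classical heavy chain, was at 3630 CPM in CFC-14d and 2915 in Random-14d in monocyte-like cells, the top of 16 classes in both libraries. T or NK cell-like barcodes followed with 2126 and 2071 CPM. Below them were the monocyte or dendritic cell-like class at 1586 and 1460 CPM and the B cell-like class at 1451 and 1307, whose intervals overlapped in CFC-14d.

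Endothelial cell-like barcodes came next for H2-D1 in CFC-14d, with 1088 CPM (1054 to 1122), and held 794 (768 to 821) in Random-14d. Border macrophage-like cells held 826 and 723 CPM. Microglia-like cells held 494 (484 to 504) and 434 (426 to 443). In CFC-14d microglia did not differ beyond counting error from the proliferating progenitor-like class at 491 CPM. The second best name for that class was microglia, so the 2 may not be separate. Neutrophil-like cells, at 442 (408 to 478), were lower than microglia. In Random-14d neutrophil-like cells, at 797 CPM, were above microglia and close to endothelial cells. Below all of these stood pericytes at 318 CPM and fibroblasts at 251 in CFC-14d, astrocytes at 183, oligodendrocytes at 129 and neuroblasts at 109. Oligodendrocytes and neuroblasts overlapped. Choroid plexus epithelial cell-like barcodes were lowest, with 36.0 and 30.1 CPM.

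**Figure D1:**
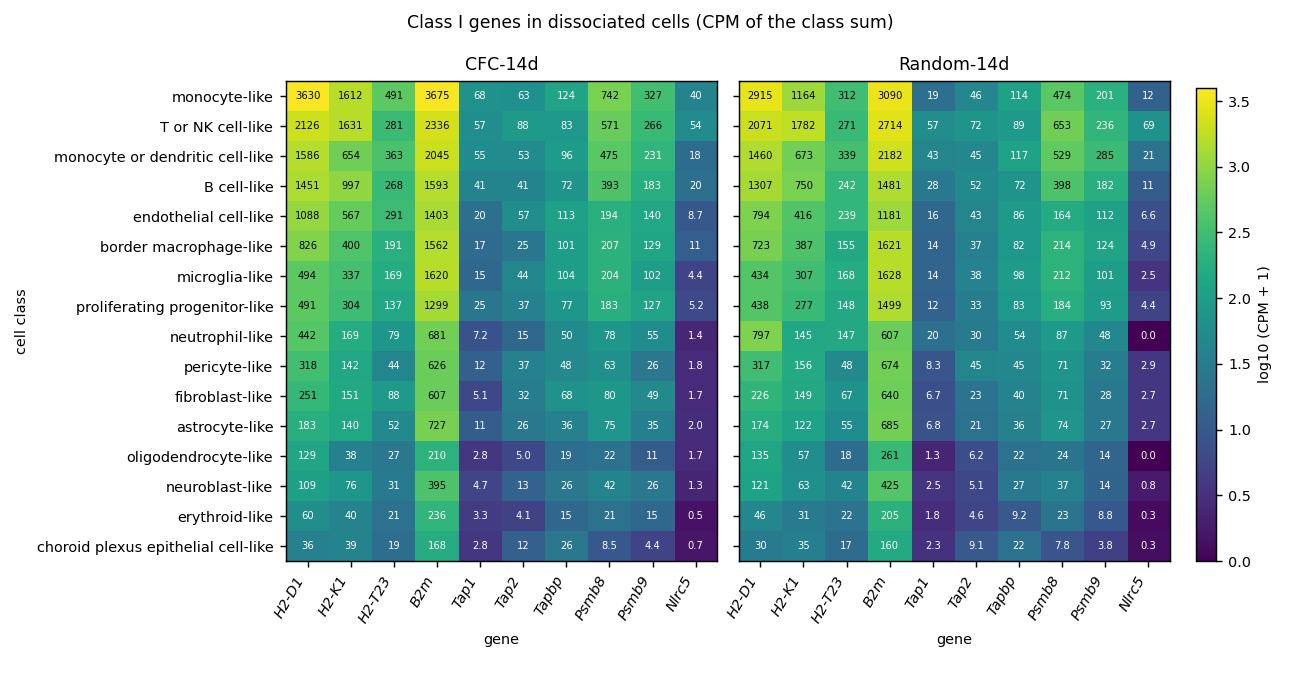
Heat map of the members (columns) in 16 classes of dissociated cells (rows), for CFC-14d on the left and Random-14d on the right. Colour is log10(CPM + 1) and the printed number is CPM of the class sum. H2-D1 ran from 36.0 CPM in choroid plexus to 3630 in monocyte-like cells of CFC-14d.

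B2m, the shared light chain, kept microglia higher in the order than H2-D1 did. It was at 3675 CPM in CFC-14d and 3090 in Random-14d in monocyte-like cells, at 1620 and 1628 in microglia, at 1403 and 1181 in endothelial cells and at 168 and 160 in choroid plexus. Microglia therefore stood above endothelial cells for B2m and below them for H2-D1 in both libraries. H2-K1, the other classical heavy chain, was at 1631 and 1782 CPM in T or NK cells, at 567 and 416 in endothelial cells and at 337 and 307 in microglia. H2-T23 encodes Qa-1, a ligand of inhibitory NK cell receptors, and was at 491 and 312 CPM in monocytes, 291 and 239 in endothelial cells and 169 and 168 in microglia. The heavy chains share long stretches of sequence, and no source used here says how reads common to them were counted, so the split between H2 genes is uncertain.

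The genes C1qa, C1qb and C1qc were highest in microglia but also found in other classes, so B2m was set against their sum. The ratio of B2m to these 3 genes was 0.0814 in microglia of CFC-14d and 0.0786 in those of Random-14d. It was 0.269 and 0.266 in choroid plexus, 0.595 and 0.408 in endothelial cells and 0.140 and 0.125 in astrocytes. The ratio in these 3 classes was above that of microglia. For border macrophages, at 0.0967 and 0.0873, and proliferating progenitors, at 0.0940 and 0.0912, it was closer to that of microglia. The same held for neuroblasts, at 0.117 and 0.115, and erythroid-like cells, at 0.113 and 0.0969. Border macrophages and proliferating progenitors were themselves high in the 3 genes, at 16147 and 13813 CPM in CFC-14d. Microglia held 19890 CPM there, neuroblasts 3375 and erythroid-like cells 2080. Ratios of H2-D1 to the 3 genes were 0.0248 and 0.0210 in microglia. They were 0.0353 and 0.0317 in astrocytes, 0.0322 and 0.0328 in neuroblasts and 0.0286 and 0.0217 in erythroid-like cells. Where a ratio is near that of microglia, it does not tell a class's own RNA from carried-over microglial RNA. The part of microglial RNA in the B2m and H2-D1 levels of other classes was not tested.

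Tap1 and Tapbp stood at lower levels, and Tap1 followed the order of H2-D1 in the classes given for it here. Tap1 was at 67.9 CPM in monocytes of CFC-14d and 19.4 in those of Random-14d, at 20.4 and 15.7 in endothelial cells, at 15.3 and 13.7 in microglia and at 2.76 and 2.33 in choroid plexus. Tapbp was flatter, at 124 and 114 CPM in monocytes, 113 and 85.8 in endothelial cells, 104 and 98.1 in microglia and 26.1 and 21.96 in choroid plexus. Microglia thus stood above endothelial cells for Tapbp in Random-14d. Nlrc5, which switches on class I promoters, was at 54.4 and 69.3 CPM in T or NK cells, at 8.69 and 6.57 in endothelial cells and at 4.39 and 2.503 in microglia.

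Psmb8 replaces the constitutive subunit Psmb5, and the percent of UMIs of this pair that were Psmb8 separated the classes. It was 74.7% in CFC-14d and 68.8% in Random-14d in monocytes, 71.5% and 78.3% in T or NK cells, 55.6% and 56.5% in microglia, 48.5% and 44.3% in endothelial cells, 27.1% and 25.5% in astrocytes and 2.85% and 2.57% in choroid plexus. Psmb9 against its counterpart Psmb6 gave 60.1% and 49.4% in monocytes, 35.6% and 34.6% in microglia, 36.6% and 32.6% in endothelial cells and 1.76% and 1.52% in choroid plexus. Psmb10 against Psmb7 gave 57.4% and 58.0% in microglia, 54.4% and 54.0% in endothelial cells and 16.2% and 16.5% in choroid plexus. These percents compare tags of different genes, so they order the classes and do not give the makeup of a proteasome.

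**Figure D2:**
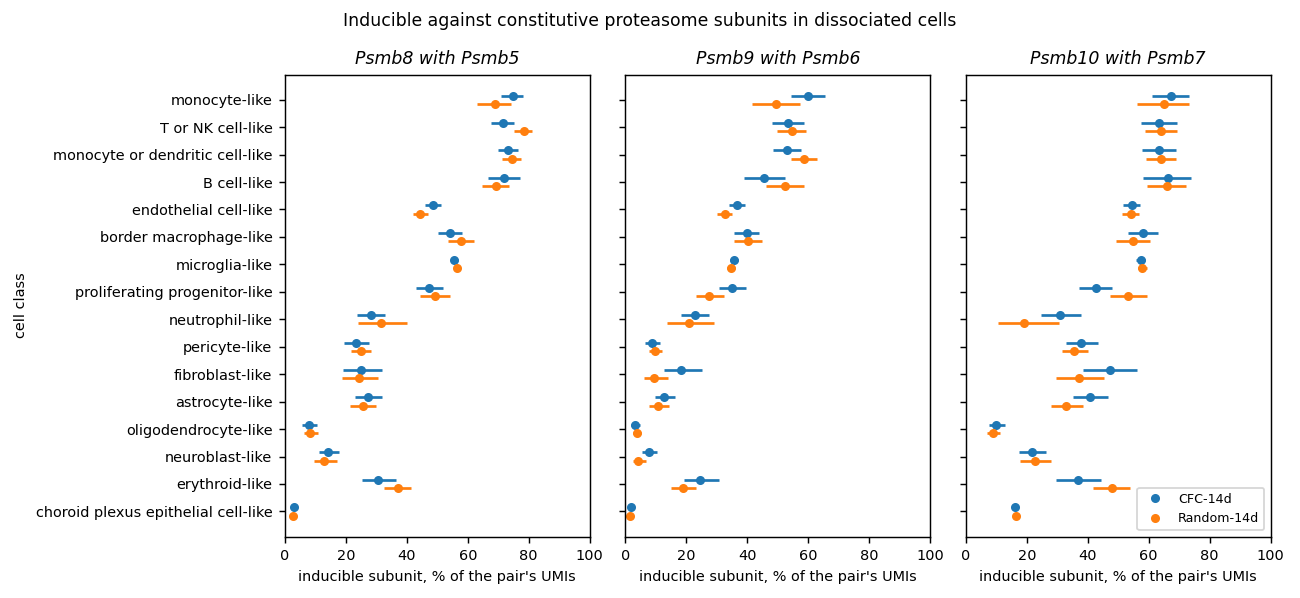
Percent of the UMIs of each proteasome pair that belong to the inducible subunit (horizontal axis), by class of dissociated cells, with CFC-14d in blue, Random-14d in orange and exact Clopper-Pearson 95% intervals as lines. For Psmb8, monocyte-like cells were at 74.7% and choroid plexus at 2.85% in CFC-14d.

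Within microglia-like barcodes, 1 cluster of 447 barcodes led by interferon genes held the most class I RNA of the clusters described here. It kept all 9 microglia markers and was held outside the microglia class because Plac8, a monocyte marker, was among its leading genes. H2-D1 was at 954 CPM in CFC-14d and 804 in Random-14d there, against 441 and 382 in the largest microglia cluster. B2m was at 2390 and 2377 CPM, against 1512 and 1547. Nlrc5 was at 38.6 and 28.9 CPM, against 3.24 and 1.76. The members were left out of the genes used to cluster, but interferon genes that move with them were not, so the gap is a description. A cluster led by chemokine genes held H2-D1 at 638 and 577 CPM, between those clusters.

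After CFC training, compared with random shocks, class I genes were higher in endothelial cell-like barcodes, and all 10 members lay on the same side. H2-D1 was at 1088 CPM in CFC-14d and 794 in Random-14d, a log2 ratio of 0.45 (0.39 to 0.52). H2-K1 was at 567 and 416 CPM, a log2 ratio of 0.45 (0.35 to 0.54). B2m differed less, with a log2 ratio of 0.25 (0.19 to 0.30), as did Psmb8 with 0.25 (0.09 to 0.40). Tapbp and Tap2 each had a log2 ratio of 0.40, Psmb9 of 0.32 and H2-T23 of 0.28, and all 4 intervals lay above 0. Tap1 at 0.37 (-0.12 to 0.87) and Nlrc5 at 0.40, with 32 and 28 counts, were not separated from 0 by counting error.

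None of the members passed 1.5-fold in endothelial cells, where 3.13% of 8362 genes with at least 100 counts over both libraries did so in either direction. Of the 9 members above that count, 9 were higher in CFC-14d, with a median log2 ratio of 0.37 against 0.01 over all genes. UMIs of the 10 members together, mostly B2m and H2-D1, came to 3880 CPM and 3057 CPM, a log2 ratio of 0.34 (0.31 to 0.38). With each library clustered on its own this ratio was 0.17. The 2 endothelial clusters differed: in the one led by Cldn5 and Slco1a4, H2-D1 was at 960 and 635 CPM, and in the smaller one led by Plvap and Emcn at 1418 and 1453. The summed log2 ratios were 0.44 (0.40 to 0.48) and -0.05 (-0.11 to 0.01), and the difference between the clusters was not tested. The smaller cluster, higher in class I, held 235 of 1388 barcodes in CFC-14d and 240 of 1871 in Random-14d. It gave 1026138 UMIs beside 2657189 of the larger one in CFC-14d, and 829755 beside 3433542 in Random-14d. The part of this mix in the ratio of the whole class was not tested.

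Other genes of the pathway in endothelial cells are given from lists chosen with earlier results of these data known. Of 22 other interferon response genes measured, 21 were higher in CFC-14d and 6 passed 1.5-fold, among them Ifi47, an interferon-inducible GTPase, at 34.8 and 16.9 CPM. All 9 other processing and loading genes were higher and 0 passed 1.5-fold, while 1 of 7 interferon receptors and kinases was higher. Of 6 class II genes, 5 were higher and 4 passed 1.5-fold, led by H2-Ab1 at 91.5 and 26.7 CPM. Summed marker levels of other cell types in these barcodes were 43.2 and 52.8 CPM for B cells, with Pax5 at 0 in CFC-14d, 12.2 and 13.8 for T cells, 58.9 and 57.0 for dendritic cells and 2720 and 3346 for microglia. Hspa1b, a heat shock gene, had a log2 ratio of -0.74, and all 4 haemoglobin genes were lower in CFC-14d. Their part in the class I difference was not tested.

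**Figure D3:**
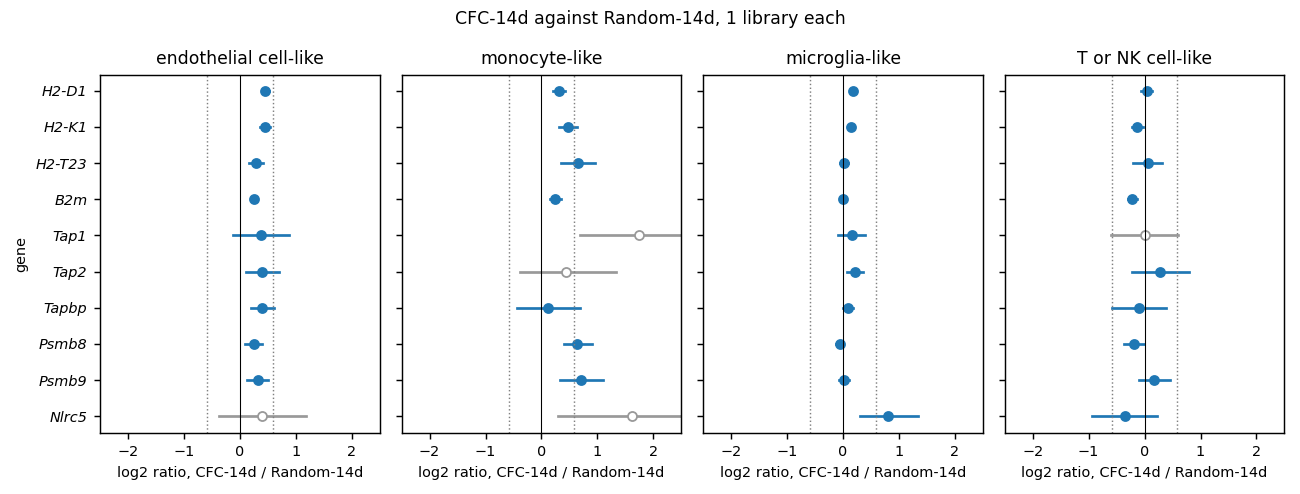
Log2 ratio of CFC-14d over Random-14d (horizontal axis) for each member in 4 classes, with exact 95% intervals for counting error as lines, which end at the edge of the panel where they are longer. Open grey points had under 100 counts over both libraries, and dotted lines mark 1.5-fold. In endothelial cells all points lay to the right of 0, and H2-D1 was at 0.45.

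Monocyte-like cells, 164 barcodes in CFC-14d and 133 in Random-14d, were also higher in CFC-14d where both libraries were clustered together, with a log2 ratio of 0.37 for the 10 members summed. With each library clustered on its own that ratio was -0.07, with B2m at -0.18 and H2-D1 at -0.07. H2-T23 was at 491 and 312 CPM, a log2 ratio of 0.65 (0.35 to 0.97). Psmb8 was at 742 and 474 CPM, a log2 ratio of 0.64 (0.40 to 0.90), and Psmb9 at 327 and 201, a log2 ratio of 0.70 (0.33 to 1.10). These 3 of 7 members with enough counts passed 1.5-fold, against 7.95% of genes, and with libraries clustered apart their log2 ratios were 0.14, 0.04 and 0.05. The median of the 7 was 0.47 against 0.05 over all genes. Tap1 had 39 and 8 counts, a log2 ratio of 1.74 (0.69 to 3.12). The classes themselves were not alike. H2-Ab1, a class II gene of antigen-presenting cells, was at 1365 and 109 CPM, summed dendritic cell markers at 26.1 and 2.42, and summed microglia markers at 2373 and 4002. Their part in the difference was not tested.

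Microglia-like cells showed small differences. H2-D1 was at 494 CPM in CFC-14d and 434 in Random-14d, a log2 ratio of 0.18 (0.14 to 0.23). H2-K1 had a log2 ratio of 0.13 (0.08 to 0.18) and Tap2 of 0.21 (0.07 to 0.36). B2m was at 1620 and 1628 CPM, a log2 ratio of -0.01 (-0.03 to 0.01), and the 10 members together gave 0.04. Nlrc5, with 82 and 53 counts, had a log2 ratio of 0.81 (0.30 to 1.34) and was the 1 of 10 members past 1.5-fold, against 1.58% of genes. Its log2 ratio lay between 0.58 and 0.92 under the alternatives in which it was measured. At the lower of these values, with each library clustered on its own, it was just under 1.5-fold, and without barcodes holding lymphocyte RNA or immunoglobulin RNA it fell below the minimum of 100 counts. In barcodes thinned to 1000 UMIs, 34.7% and 32.2% of microglia had an H2-D1 UMI, and 49.7% and 47.9% did before thinning. Thinning left out 2560 and 1526 microglia. In thinned choroid plexus barcodes the shares were 5.29% and 3.48%. The median depths were 2029 and 1919 UMIs in microglia and 4015 and 4877 in choroid plexus.

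T or NK cells went the other way for B2m, at 2336 CPM in CFC-14d and 2714 in Random-14d, a log2 ratio of -0.22 (-0.30 to -0.13). H2-K1 had a log2 ratio of -0.13 (-0.23 to -0.02) and Psmb8 of -0.19 (-0.37 to -0.01). The sign of B2m was kept under the alternatives, but H2-K1 reached 0.04 and Psmb8 0.06 with no doublets removed. None of 9 members passed 1.5-fold there, against 4.18% of genes. In neutrophil-like cells H2-D1 was at 442 and 797 CPM, a log2 ratio of -0.85 (-1.04 to -0.67), and H2-T23 at 79.2 and 147. Different clusters made up most of this class in each library: the one with Camp, Ngp and Ltf among its leading genes held 350 of 399 barcodes in CFC-14d and 49 of 121 in Random-14d, and the one with Il1b and Cxcl2 held 49 and 72. B2m in the same cells had a log2 ratio of 0.17 (-0.02 to 0.36). There 36.8% of genes passed 1.5-fold, so 2 of 6 members past it is near that background. In oligodendrocyte-like cells 3 of 3 members with enough counts were lower in CFC-14d and 0 passed 1.5-fold, against 4.00% of genes. In choroid plexus 9 of 9 were higher with a median of 0.21, beside a median of 0.12 over all genes, and 0 passed 1.5-fold, against 1.41%.

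Among wild-type nuclei class I RNA was scarce. H2-D1 was at 3.34 CPM in WT-naive and 4.45 in WT-CFC in granule neurons, the principal neurons of the dentate gyrus, and at 6.44 and 7.84 in CA3 or CA2 pyramidal neurons. It was at 12.03 and 14.4 CPM in oligodendrocytes, 11.4 and 20.9 in astrocytes, 12.7 and 86.7 in microglia, and 77.7 and 125 in endothelial cells or pericytes, the top class in both. Nuclei hold other RNA than whole cells, and kits, tissue handling and mice differed between the parts, so levels of cells and nuclei are set side by side only.

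Between the wild-type groups the 10 members together were higher after training in microglia, at 249 CPM in WT-naive and 514 in WT-CFC, a log2 ratio of 1.04 (0.70 to 1.40). H2-D1 rested on 5 counts in WT-naive and 40 in WT-CFC, a log2 ratio of 2.65 (1.43 to 4.47), and H2-K1 on 15 and 49, a log2 ratio of 1.44 (0.62 to 2.42). None of the 10 members reached 100 counts over both libraries in these microglia, where 9.21% of genes passed 1.5-fold. The microglial gene C1qb moved the same way, from 290 to 713 CPM, while the 9 microglia markers summed to 6430 and 7893 CPM. Its part in the difference was not tested. In astrocytes H2-K1 was at 41.0 and 63.3 CPM, a log2 ratio of 0.62 (0.16 to 1.10), and was the 1 member with at least 100 counts, where 10.1% of genes passed 1.5-fold. Tap2 there had 16 and 41 counts, a log2 ratio of 1.08 (0.24 to 2.04). In endothelial cells or pericytes H2-K1 was at 37.4 and 120 CPM, a log2 ratio of 1.64 (0.77 to 2.69). In oligodendrocytes the sum was 45.7 and 54.4 CPM, a log2 ratio of 0.24 (-0.34 to 0.86), none of the members reached 100 counts, and 14.3% of genes passed 1.5-fold. In CA3 or CA2 neurons B2m was at 4.04 and 7.60 CPM, and 1 of 4 members passed 1.5-fold against 4.63% of genes.

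The library labelled KO-CFC held more class I RNA than either wild-type library in the classes described here. The 10 members summed had a log2 ratio over WT-CFC of 5.42 in oligodendrocytes and 2.62 in microglia. This comparison shares WT-CFC with the one before, and both wild-type values are given beside it. In oligodendrocytes H2-D1 was at 883 CPM in the library labelled KO-CFC, 14.4 in WT-CFC and 12.03 in WT-naive, a log2 ratio over WT-CFC of 5.90 (5.27 to 6.70). H2-K1 was at 509, 15.2 and 4.81 CPM, a log2 ratio of 5.03 (4.40 to 5.82). B2m was at 287, 11.99 and 12.03 CPM, a log2 ratio of 4.54 (3.82 to 5.44). H2-T23 had 218 counts in the library labelled KO-CFC, 1 in WT-CFC and 0 in WT-naive.

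The other members in oligodendrocytes pointed the same way. Nlrc5 had 45 counts in the library labelled KO-CFC and 0 in WT-CFC, at least 27.3-fold higher against a floor of 3 counts in that class. Tap1 had 32 and 0 counts, at least 19.4-fold higher by the same floor. Psmb8 had 74 and 1, and it made up 49.7% (41.4 to 58.0) of the UMIs of its pair with Psmb5, against 1.16% (0.03 to 6.31) of 86 UMIs in WT-CFC. Tapbp differed least, at 32.0 and 7.20 CPM, a log2 ratio of 2.11 (0.98 to 3.46). The 10 members together came to 2342 CPM, 54.4 and 45.7, a log2 ratio over WT-CFC of 5.42 (5.08 to 5.80). The level of 2342 CPM was 1523 when barcodes under 1000 UMIs were left out and 1376 when no doublets were removed.

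Microglia, astrocytes and neurons of the library labelled KO-CFC showed the same direction. Over WT-CFC the ratio of H2-D1 was smaller in them than in oligodendrocytes, which was not so for H2-K1 in granule neurons, at 5.11 (4.19 to 6.43). In microglia H2-D1 was at 1018 CPM, 86.7 in WT-CFC and 12.7 in WT-naive, a log2 ratio over WT-CFC of 3.54 (3.10 to 4.05). Nlrc5 in microglia was at 173, 19.5 and 2.55 CPM, a log2 ratio of 3.07 (2.19 to 4.30). In astrocytes H2-D1 was at 320, 20.9 and 11.4 CPM, a log2 ratio of 3.92 (3.44 to 4.47), and H2-K1 at 388, 63.3 and 41.0, a log2 ratio of 2.61 (2.30 to 2.94). In granule neurons H2-D1 was at 58.8, 4.45 and 3.34 CPM, a log2 ratio of 3.71 (3.23 to 4.26). The intervals of all 10 members lay above 0 against WT-CFC in oligodendrocytes, microglia, astrocytes, granule neurons and CA3 or CA2 neurons, and of 8 in endothelial cells or pericytes, where Tapbp and Nlrc5 were the exceptions. In the CA3 or CA2 class different clusters were compared, since 1012 of 1244 barcodes of the library labelled KO-CFC came from a cluster that held 187 of the 2008 of WT-CFC, and 1821 of WT-CFC came from the other.

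Many other genes also differed in that library. Against WT-CFC, 27.5% of genes passed 1.5-fold in oligodendrocytes, 35.0% in microglia, 26.7% in astrocytes, 20.6% in granule neurons, 17.8% in CA3 or CA2 neurons and 58.9% in endothelial cells or pericytes. Against WT-naive the shares were 26.6% in oligodendrocytes and 35.3% in microglia. The members with at least 100 counts passed it in 4 of 4 cases in oligodendrocytes, 8 of 8 in microglia and 5 of 5 in astrocytes. They reached that count mainly through the library where they were high, so these counts support nothing. In microglia the class II chain Cd74 was at 1314 and 0 CPM. In oligodendrocytes Iigp1, an interferon-inducible GTPase, was at 218 and 0.800 CPM, 0 of 2 measured interferon receptors and kinases passed 1.5-fold, and 1 of 2 constitutive proteasome subunits did.

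**Figure D4:**
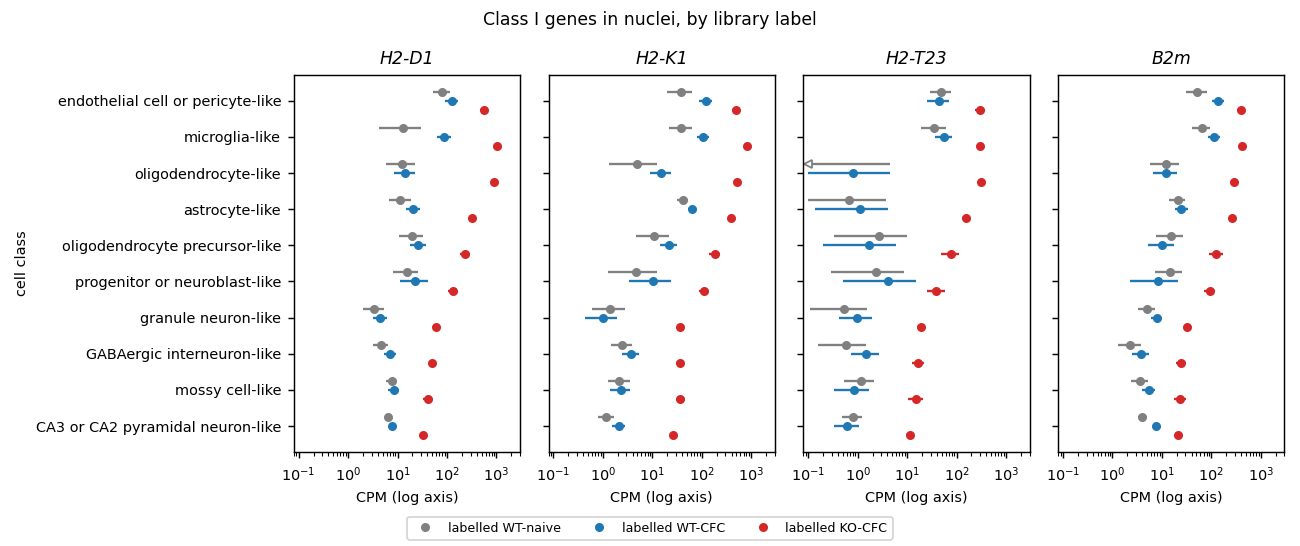
CPM (log axis) of H2-D1, H2-K1, H2-T23 and B2m in 10 classes of nuclei, with WT-naive in grey, WT-CFC in blue, KO-CFC in red and exact Poisson 95% intervals as lines. An open arrow marks 0 counts. For H2-D1 in oligodendrocytes the red point was at 883 CPM, and the blue and grey ones were at 14.4 and 12.03.

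Markers of lymphocytes moved with class I in the library labelled KO-CFC. In its oligodendrocytes summed B cell markers were at 335 CPM, against 3.20 in WT-CFC and 1.20 in WT-naive, from 3 of 7 markers, and the defining Ms4a1, Pax5 and Cd79b were among those at 0. Summed T cell markers were at 24.7, 3.20 and 6.02 CPM, from 6 of 8 markers with Trac and Cd4 at 0, and monocyte markers at 23.3, 0 and 1.20. In microglia summed B cell markers were at 576, 165 and 196 CPM and T cell markers at 56.9, 10.8 and 5.09. In astrocytes B cell markers were at 142, 0.565 and 4.71 CPM, where Ighm alone was above 0 in the library labelled KO-CFC, and T cell markers at 39.0, 3.96 and 5.38. Granule neurons had B cell markers at 65.6, 2.47 and 1.76 CPM, with 6 of 7 above 0 in that library. Their part in the class I levels was examined only as in the following measurements. An unnamed cluster of low depth and high immunoglobulin RNA held 1008 barcodes of this library, and an unnamed one with T cell markers held 309. The latter also had immunoglobulin genes, Ighm and Iglc1 among them, in its leading genes. Its Igkc was at 4907 CPM in this library, against 2665 in the low-depth cluster.

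Leaving out every barcode with an immunoglobulin UMI kept 31 of 389 oligodendrocytes, in which H2-D1 was at 852 CPM (606 to 1165) against 883 in all of them. The same step kept 73 of 710 microglia, with H2-D1 at 883 CPM (690 to 1114), and 57 of 503 astrocytes, with 409 (295 to 553). In granule neurons it kept 197 of 1558 barcodes, with 47.7 CPM (32.4 to 67.7) against 58.8. The level in barcodes free of immunoglobulin UMIs was thus as large within counting error in oligodendrocytes, microglia, astrocytes and granule neurons. The summed log2 ratio over WT-CFC was 5.33 in such oligodendrocytes, 2.54 in microglia, 3.36 in astrocytes and 3.14 in granule neurons. The oligodendrocyte level rested on 39 H2-D1 counts. Since most barcodes held immunoglobulin RNA, one without such a UMI may still hold free RNA. This step therefore does not separate free class I RNA from that of the cells.

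H2-D1 was also set against Igkc, class by class. There were 0.166 H2-D1 UMIs (0.147 to 0.186) for each Igkc UMI in the low-depth immunoglobulin cluster. The cluster with T cell markers, itself higher in Igkc, had 0.210. Granule neurons had 0.204 (0.181 to 0.228), CA3 or CA2 neurons 0.218 (0.192 to 0.246) and progenitors or neuroblasts 0.172 (0.135 to 0.217). GABAergic interneurons had 0.293 (0.243 to 0.352) and mossy cells 0.297 (0.234 to 0.376). Astrocytes had 0.430 (0.373 to 0.494), microglia 0.780, oligodendrocytes 1.09 (0.968 to 1.22) and endothelial cells or pericytes 1.13. The intervals of granule neurons and of progenitors or neuroblasts overlapped that of the immunoglobulin cluster. Those of the other classes given here, CA3 or CA2 neurons, interneurons and mossy cells among them, lay above it. The part of free RNA in these levels was not tested.

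**Figure D5:**
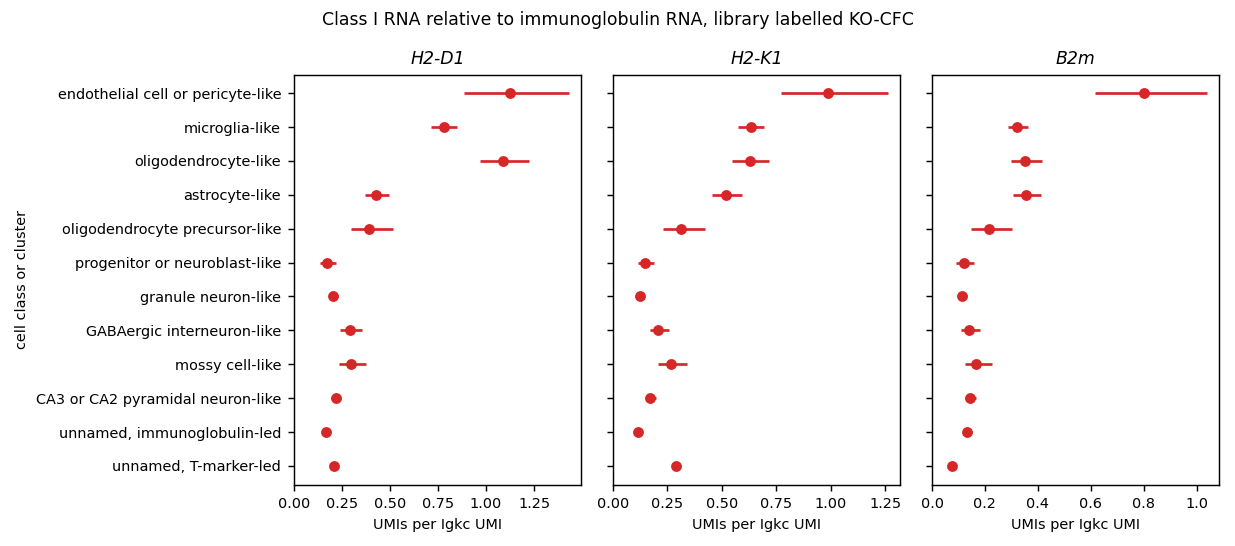
UMIs of H2-D1, H2-K1 and B2m for each Igkc UMI (linear horizontal axis) in classes and unnamed clusters of the library labelled KO-CFC, with 95% intervals for counting error as lines. H2-D1 was at 0.166 in the low-depth immunoglobulin cluster and at 1.09 in oligodendrocytes.

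The members varied together across classes and libraries. Over 32 class-by-library sums of 16 classes of dissociated cells, Pearson r of log2 CPM between pairs of members lay between 0.746 (Nlrc5 with Tapbp) and 0.986 (Psmb9 with Psmb8). Over 30 sums of 10 nuclei classes it lay between 0.746 (Tapbp with Tap1) and 0.965 (Psmb8 with H2-T23). Of 18105 other genes of the dissociated cells, those most like the mean of the members were Irf1, an interferon-induced transcription factor, with r of 0.967, Msn with 0.964, Parp14 with 0.954, Gvin-ps7 with 0.953 and Tapbpl, a relative of tapasin, with 0.951. Among 23208 genes of the nuclei they were Igtp with 0.940, Bst2 with 0.938, Usp18 with 0.934, the class I gene H2-T22 with 0.932 and Irgm1 with 0.924. Sums of 1 library share its depth and its free RNA, so these values are descriptions. The nuclei sums include those of the library labelled KO-CFC, where the members were higher in the classes described. Values of r among nuclei therefore also carry the difference between libraries, and the part due to classes was not tested.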

How the data were processed

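RNA was measured in 5 droplet libraries, 2 of dissociated cells and 3 of nuclei. The deposited files hold raw UMI counts per gene and barcode, made with Cell Ranger 8.0.1 on GRCm39, per the submitters' processing notes, which also name Seurat 5.4.0. No row of the deposited counts was normalized. The totals were 38045642 to 126937815 UMIs a library. More UMIs in a class give narrower intervals.

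Barcodes with under 500 UMIs or 300 genes, or over 20% (cells) or 5% (nuclei) mitochondrial UMIs, were left out. The automatic scrublet threshold (scanpy 1.11.5) marked under 0.5% in each library and was not used, so the barcodes with the highest scores, up to 8%, were removed instead, which came to 7.34% to 7.90% of the barcodes that passed. The parts were clustered separately (2000 variable genes without the members, other class I, sex-linked, immunoglobulin, haemoglobin and mitochondrial genes; 30 components, 15 neighbours, Leiden at resolution 1.0). Clusters were called X-like from marker lists. The limits for naming were set after seeing the clusters, so the names are rebuilt and not the authors'. Clusters whose leading genes went against a name stayed unnamed.

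UMIs of each class were added up within a library, for classes of at least 100 barcodes in each and divided by the class total to give CPM. Ratios had 0.5 counts added, and their intervals are exact conditional binomial ones. Intervals of CPM are exact Poisson and of shares exact Clopper-Pearson. Called means past 1.5-fold among genes with at least 100 counts over both libraries. The steps were tested on simulated data. Some items are not reported here. All 10 members are described. Of the lists, genes past 1.5-fold are named, at most 4 in each direction by size, with Psmb10 and the constitutive subunits always given, and C1qb, Igkc and Xist were named beside this rule after their values were seen. The members and lists were chosen with earlier results of these data known. The alternatives changed the filters, doublet removal, clustering, scaling, count minimum and thinning.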

Additional observations from a re-analysis of the deposited data

Results flagged for a closer look

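Members whose log2 ratio of CFC-14d over Random-14d had opposite signs in different cell classes are given here. H2-D1 was at 0.45 in endothelial cells and -0.85 in neutrophil-like cells, where 350 of 399 barcodes of CFC-14d and 49 of 121 of Random-14d came from the same cluster. H2-T23 was at 0.65 in monocytes and -0.89 in neutrophil-like cells. Psmb8 was at 0.64 in monocytes and -0.19 in T or NK cells. With libraries clustered apart the monocyte values were 0.14 for H2-T23 and 0.04 for Psmb8. In T or NK cells the sign of Psmb8 was not kept, and it reached 0.06 with no doublets removed. Psmb9 was at 0.74 in erythroid-like cells, a class named on 3 of 6 markers, and -0.31 in the monocyte or dendritic cell-like class. Over all genes the median log2 ratio was 0.25 in erythroid-like cells, where 16.4% passed 1.5-fold. In the monocyte or dendritic cell-like class it was 0.04, and 4.23% passed. With 1 library a group the differences between classes were not tested.

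Clusters outside the named classes also held class I RNA in the library labelled KO-CFC. The low-depth cluster with immunoglobulin RNA held H2-D1 at 441 CPM and H2-K1 at 302.9 CPM. The cluster with T cell markers, also led by immunoglobulin genes, held H2-D1 at 1029 CPM and H2-K1 at 1431 CPM.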

How the results depend on the processing

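No paired analysis was possible because each group is 1 library. Of the summaries, 201 recomputed values stayed close to the reported ones and 39 did not. The sign was kept in 24 of 39 ratios of CFC-14d over Random-14d and 5 of 5 of WT-CFC over WT-naive. It was kept in 25 of 25 of KO-CFC over WT-CFC and 23 of 23 of KO-CFC over WT-naive. These counts cover the alternatives that gave a value, and they take in sums over all members beside single members. For WT-CFC over WT-naive the only single-member ratio was H2-K1 in astrocytes, and the rest were sums. Clustered apart, the monocyte sum turned from 0.37 to -0.07. The T or NK sum of -0.10 ran from -0.30 without lymphocyte RNA to 0.07 with no doublets removed. Other than where a minimum count is named, the cause of a change was not tested.

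The summed endothelial log2 ratio of 0.34 was 0.40 with at least 1000 UMIs, 0.39 with no doublets removed, 0.40 at Leiden resolution 2 and 0.17 where the libraries were clustered apart. The microglial one of 0.0427 was 0.0654 with the 15% highest doublet scores removed, 0.0253 with none, 0.0593 with class I genes in the clustering, 0.0912 with each library on its own and 0.0250 with a median-of-ratios factor. In microglia 0 members instead of 1 passed 1.5-fold with libraries apart, where Nlrc5 was at 0.58, and without lymphocyte or immunoglobulin RNA, where it missed the minimum of 100 counts.

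For the library labelled KO-CFC over WT-CFC the oligodendrocyte sum of 5.42 was 4.91 with at least 1000 UMIs, and the microglial one of 2.62 was 2.92 with a stricter mitochondrial limit. With a minimum of 20 counts, 5 members in microglia and 2 in oligodendrocytes passed for WT-CFC over WT-naive instead of 0, and 10 in oligodendrocytes instead of 4 for KO-CFC over either wild type. Without lymphocyte RNA 5 of 5 members with enough counts passed in microglia instead of 8 of 8, and without immunoglobulin RNA 2 of 2 in microglia and 0 of 0 in oligodendrocytes. Over WT-naive the last step left 0 of 0 in microglia and 0 of 0 in oligodendrocytes, since fewer or no members reached the minimum count.

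The summed endothelial level of 3880 CPM in CFC-14d was 4142 with at least 1000 UMIs, 4002 with the mitochondrial limit, 4128 with the 15% highest doublet scores removed, 3725 with none, 4077 at resolution 2, 3471 with libraries apart, 3791 with equal weight for barcodes and 4548 without haemoglobin, mitochondrial and ribosomal genes. The oligodendrocyte level of 2342 CPM in the library labelled KO-CFC was 1523 with at least 1000 UMIs, 2183 with the mitochondrial limit, 1376 with no doublets removed and 2168 with equal weight. Thinned to 500 UMIs, 19.2% and 17.4% of microglia had an H2-D1 UMI and 0.183% and 0.142% an Nlrc5 UMI, against 34.7%, 32.2%, 0.356% and 0.232% at 1000. Microglia without the interferon or platelet gene clusters gave no other value, since those clusters were already outside the class; adding them and leaving out immunoglobulin barcodes were chosen after seeing the data.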
